A study of Mus musculus with 2 samples.

Results

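The miR-17-92 polycistron is a run of 6 microRNA hairpins, Mir17, Mir18, Mir19a, Mir20a, Mir19b-1 and Mir92-1, carried by the long non-coding transcript Mir17hg on mouse chromosome 14. These 6 genes were taken by name out of 1973 microRNA gene rows counted in embryonic limb, and all 6 had a row in both count tables. The samples were limbs of B6NCrl mouse embryos at embryonic day 12.5, with no treatment or genetic change named in the labels. Replicate 1 pooled limbs of 88 embryos and replicate 2 limbs of 68 embryos, males and females together, and both were libraries of RNA below 30 nt. There is a single group, so the questions that can be asked are how the hairpins of one transcript compare with each other, with their relatives elsewhere, and between the pools.

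A microRNA polycistron is transcribed as 1 long primary RNA, from which the nuclear enzyme Drosha cuts each hairpin and Dicer then cuts the mature strands. A mature microRNA finds its target messenger RNAs mainly through its seed, bases 2 to 8 from its 5′ end, so microRNAs with the same seed share many targets. The miR-17-92 cluster is known for its activation by Myc in dividing cells and for its need in skeletal growth, where loss of one copy of its human counterpart causes short stature and digit defects. Related clusters lie on chromosome 5 (Mir106b, Mir93 and Mir25) and on chromosome X (Mir106a, Mir18b, Mir20b, Mir19b-2, Mir92-2 and Mir363).

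All coordinates are those of mm10, also called GRCm38. Mir17hg spans chromosome 14 from 115042879 to 115046727 on the plus strand and has 2 annotated exons. All 6 hairpins lie inside exon 2 (115043271 to 115046727), within a stretch of 836 nt. From the start of the transcript they run in the order Mir17 (115043671 to 115043754), Mir18 (115043851 to 115043946), Mir19a (115044000 to 115044081), Mir20a (115044157 to 115044263), Mir19b-1 (115044305 to 115044391) and Mir92-1 (115044427 to 115044506). The spaces between them, from the one after Mir17 to the one before Mir92-1, are 96, 53, 75, 41 and 35 nt.

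The 6 hairpins carry 4 different seeds, and the mature strand with the family's seed (called the family strand here) is shown for each, since the results below follow these groups. Sequences are RefSeq's for GRCm38.p6, 5′ to 3′, with the seed in capitals.
miR-17-5p of Mir17: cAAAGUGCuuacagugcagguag
miR-20a-5p of Mir20a: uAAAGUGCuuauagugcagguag
miR-18a-5p of Mir18: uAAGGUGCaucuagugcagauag
miR-19a-3p of Mir19a: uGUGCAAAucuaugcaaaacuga
miR-19b-3p of Mir19b-1: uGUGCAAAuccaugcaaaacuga
miR-92a-3p of Mir92-1: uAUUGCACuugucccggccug
Mir17 and Mir20a share a seed, and their family strands differ at 2 of 23 bases. The seed of miR-18a differs from theirs at 1 base. Mir19a and Mir19b-1 share another seed and differ at 1 of 23 bases, while the seed of miR-92a differs from the miR-17 seed at 4 of 7 positions.

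Of these 6 hairpins, 2 give a family strand that is also made elsewhere. Of 11 mature strands that RefSeq lists for the cluster, a search of annotated transcripts and hairpins found the exact sequence of 9 only in the cluster itself. Sequence outside the annotation was not searched. The exceptions were miR-19b-3p, also made from Mir19b-2 (chromosome X, 52741983 to 52742066, minus strand), and miR-92a-3p, also made from Mir92-2 (chromosome X, 52741838 to 52741928, minus strand). The hairpins are shown in pairs, with the stretch common to the pair in capitals, because a read that falls inside that stretch fits both places equally.
Mir19b-1: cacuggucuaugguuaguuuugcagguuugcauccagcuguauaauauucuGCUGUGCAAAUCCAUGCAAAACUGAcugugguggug
Mir19b-2: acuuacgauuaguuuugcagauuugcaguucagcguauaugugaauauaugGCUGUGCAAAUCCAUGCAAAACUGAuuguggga
Mir92-1: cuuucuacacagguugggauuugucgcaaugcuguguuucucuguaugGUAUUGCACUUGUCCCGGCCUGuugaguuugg
Mir92-2: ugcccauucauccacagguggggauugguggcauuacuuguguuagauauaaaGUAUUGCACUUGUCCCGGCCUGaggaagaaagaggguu
The common stretch was 25 nt in the Mir19b pair and 22 nt in the Mir92 pair. In both pairs it holds the whole family strand and ends with that strand's last base, and the paired hairpins differ at the next base. The longest stretch shared with any other hairpin was shorter for Mir18 and Mir20a (17 nt each) and for Mir17 and Mir19a (13 nt each). Allowing 1 mismatch raised the number of strands with a match elsewhere from 2 to 4 of 11, as miR-17-5p then matched Mir106a, and miR-19a-3p matched Mir19b-1 and Mir19b-2.

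Replicate 1 held 4525636 counts on microRNA genes and replicate 2 held 3604284, on the strand of the gene. Reads that mapped to several places were kept apart in the tables and named no gene. They made up 27.2% of the reads of replicate 1 and 23.7% of replicate 2, which is 7.14 and 8.42 times the counts of the whole cluster. How many of them came from miR-19b-3p or miR-92a-3p cannot be read from these tables, so the levels of Mir19b-1 and Mir92-1 describe the uniquely placed reads. The tissue was checked by marker genes: all 5 limb genes (Mir196b, Mir10a, Mir10b, Mir615 and Mir214) were detected, with a summed level of 167910 to 170609 CPM (counts per 1000000 gene counts). Markers of other cell types were read too, given here for replicates 1 and 2. The cartilage genes summed to 26021 and 25204 CPM and the ectoderm genes to 18064 and 18476 CPM. The endothelial gene Mir126a stood at 18526 and 19409 CPM, and the muscle genes summed to 2245 and 2541 CPM. Nearly all of the muscle sum was Mir206 (2196 and 2498 CPM). Mir133b stood at 46.8 and 43.3 CPM, and Mir1a-1 had 11 and 0 counts. The white blood cell markers summed to 581 and 655 CPM, from Mir155 and Mir223, while Mir150 had only 14 and 20 counts. The red blood cell markers summed to 257 and 180 CPM. The liver gene Mir122 stood at 17.0 and 13.0 CPM. The neural markers summed to 145 CPM in replicate 1 and 159 CPM in replicate 2, nearly all of it Mir137 (144 and 158 CPM). Mir9-3 had 5 and 4 counts, and the other 4 of the 6 measured (Mir9-2 and the Mir124a genes) had 0. Copies of the marker strands elsewhere were not searched. A count at or near 0 therefore does not show that a microRNA was absent, as its reads may have named no gene.

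Together the 6 hairpins took 8.96% of the gene counts in replicate 1 (95% Clopper-Pearson interval 8.93 to 8.98) and 7.61% in replicate 2 (7.59 to 7.64). The mean was 8.28% ± 0.95 (SD, n = 2). PCR copies of a molecule are counted as separate reads, so such intervals reflect counting alone, and the gap between the libraries was wider than either interval. All 6 hairpins reached 10 CPM in both libraries, a level that 286 of the 1973 genes reached. No member had a count on its opposite strand in either library, but the own-strand column was recognised by this, so it is not a separate result.

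Mir17, the first hairpin of the transcript, stood at 56205 CPM in replicate 1 and 45686 CPM in replicate 2, a mean of 50945 ± 7438 CPM (SD, n = 2). It ranked 4th and 5th among all genes in replicates 1 and 2 and alone held 62.8% and 60.0% of the cluster's counts. Mir20a, which shares its seed and lies after Mir19a, stood at 19240 and 15512 CPM (mean 17376 ± 2636). Mir17 and Mir20a together gave 84.2% of the cluster's counts in replicate 1 and 80.4% in replicate 2.

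Mir18, the hairpin known to bind the RNA-binding protein hnRNP A1 during its processing, stood at 8412 and 7705 CPM (mean 8059 ± 500). Mir92-1, the last hairpin, stood at 5555 and 7084 CPM (mean 6319 ± 1081). Mir18 was the higher of this pair in both libraries, by 1.51-fold in replicate 1 and by only 1.09-fold in replicate 2. The gap between their means, 1739 CPM, was little wider than the sum of their SDs, 1581 CPM. Mir92-1 could also lack reads that fit its copy on chromosome X equally and so named no gene, while the family strand of Mir18 has no exact copy in the annotation.

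The miR-19 hairpins lay far below the rest. Mir19a stood at 119 CPM in replicate 1 (538 counts) and 126 CPM in replicate 2 (453 counts), a mean of 122 ± 4.8 CPM. Mir19b-1 stood at 23.9 CPM (108 counts, interval 19.6 to 28.8 CPM) and 26.4 CPM (95 counts, interval 21.3 to 32.2 CPM), a mean of 25.1 ± 1.8 CPM. The libraries overlapped within these intervals for Mir19b-1, and Mir19a exceeded it by 4.98 and 4.77 times.

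**Figure D1:**
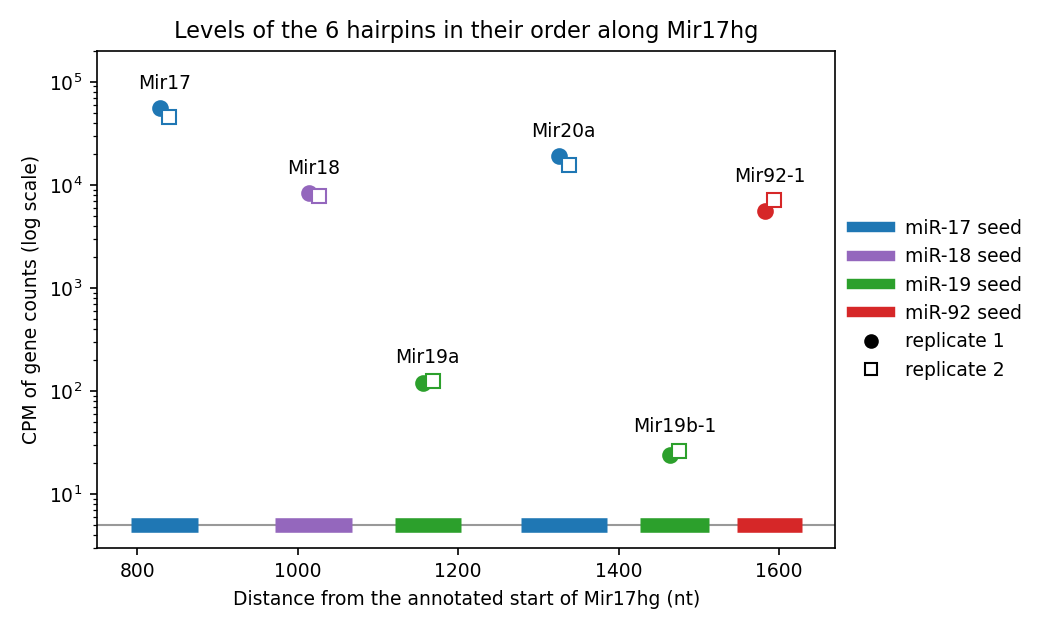
Level of each hairpin (CPM of gene counts, log scale) against its distance in nt from the annotated start of Mir17hg, with replicate 1 as filled circles, replicate 2 as open squares and the hairpins drawn to scale as bars at the bottom, coloured by seed. Levels do not follow the order along the transcript: Mir19a (119 and 126 CPM) lies between Mir18 (8412 and 7705 CPM) and Mir20a (19240 and 15512 CPM).

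The order was therefore Mir17, Mir20a, Mir18, Mir92-1, Mir19a and Mir19b-1, and it was the same in both libraries. Taken per hairpin nucleotide, the order held for the mean levels but not in replicate 2 alone. There Mir92-1 (25532 counts over 80 nt) passed Mir18 (27771 counts over 96 nt). For all 5 pairs of neighbours in the order by CPM the gap of the means was wider than the sum of the SDs. No test of the order was made, as an exact permutation test on 2 pairs cannot give a two-sided p below 0.5. The order of levels was not that of position: the hairpins ranked by level sit at places 1, 4, 2, 6, 3 and 5 along the transcript. Mir17 exceeded Mir19a by 473-fold in replicate 1 and 363-fold in replicate 2, and it exceeded Mir19b-1 by 2355 and 1733 times. As given above, miR-19b-3p has an exact copy elsewhere in the annotation, and miR-19a-3p has none but matches Mir19b-1 and Mir19b-2 at 1 mismatch. The part of unplaced reads in these ratios was not tested. How efficiently each sequence was captured in the libraries was not measured, so these are ratios of reads and not of molecules.

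The base composition and length of the hairpins were set beside their levels. All 6 had a similar base composition, with a GC content between 43.7% (Mir19b-1) and 47.5% (Mir92-1), and lengths from 80 to 107 nt. The family strands differed more. Their GC was 34.8% in miR-19a-3p, 39.1% in miR-19b-3p and miR-20a-5p, 43.5% in miR-18a-5p, 47.8% in miR-17-5p and 57.1% in miR-92a-3p. Mir19a, Mir19b-1 and Mir20a had the family strands of lowest GC. The part of base composition in the levels was not tested.

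A range this wide was compared with the range inside other microRNA clusters. Between the highest and the lowest hairpin of a cluster, miR-17-92 spanned 2355 and 1733 times in replicates 1 and 2. In the X-linked Mir322-Mir503 cluster Mir322 exceeded Mir450b, the lowest of the 5 hairpins first listed, by 162 and 229 times. That list left out Mir450-1 and Mir450-2, which lie in the same cluster and share the strand miR-450a-5p. With them added, after the data were seen, the span was wider than that of miR-17-92, as Mir322 exceeded Mir450-2 (62 and 63 counts) by 5023 and 3883 times, and it exceeded Mir450-1 by 1922 and 1760 times. Mir99a exceeded its neighbour Mirlet7c-1, a pair also added then, by 807 and 550 times. A span of this size was therefore not particular to miR-17-92. In the X-linked relative of miR-17-92 the lowest hairpin was again the miR-19b hairpin, Mir19b-2, at 10.1 ± 1.8 CPM, with the highest, Mir106a, 86.4 and 52.6 times above it. In the chromosome 5 relative, which has no miR-19 hairpin, Mir93 exceeded Mir25 by 19.5 and 19.1 times. Several of these clusters hold hairpins with copies elsewhere, and Mir24-1 of one of them had no row and was not used.

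**Figure D2:**
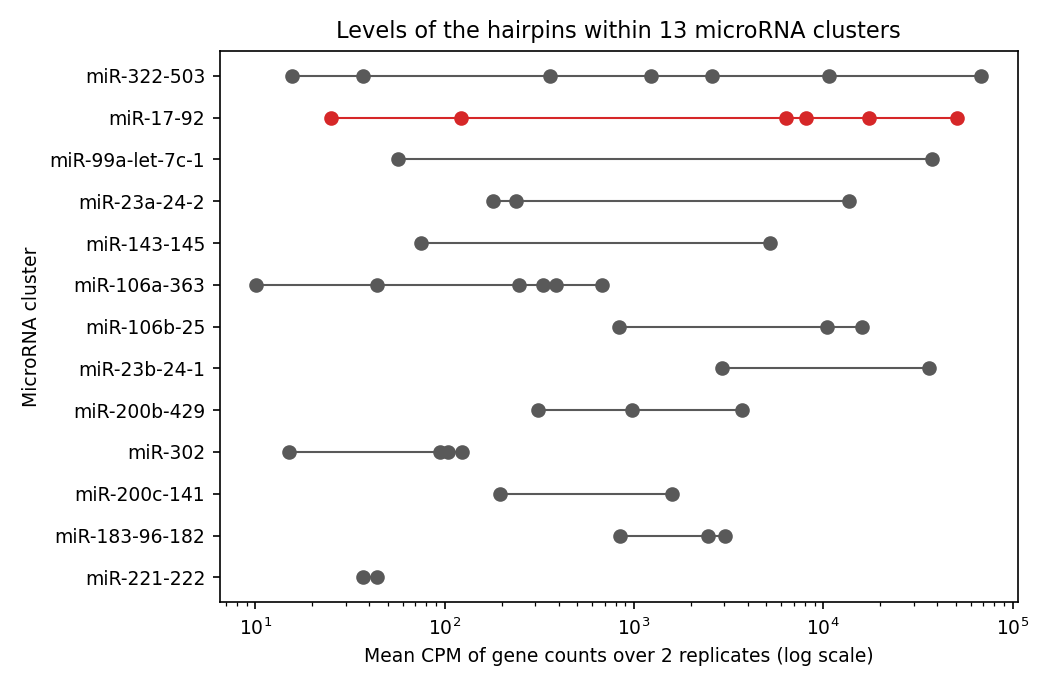
Mean level over the 2 replicates (CPM of gene counts, log scale) of the listed hairpins in 13 microRNA clusters, the 2 later additions included, 1 point per hairpin and 1 line per cluster, with miR-17-92 in red. The Mir322-Mir503 cluster, at the top, spans a wider range than miR-17-92, in which 4 hairpins sit between 6319 and 50945 CPM and the miR-19 hairpins stand apart at 25.1 and 122 CPM.

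The seed groups were then followed across the genome, to see how much of each came from chromosome 14. The relatives outside the cluster that carry the same seeds are shown with the seed in capitals.
miR-93-5p of Mir93: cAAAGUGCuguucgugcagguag
miR-106b-5p of Mir106b: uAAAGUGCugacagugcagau
miR-106a-5p of Mir106a: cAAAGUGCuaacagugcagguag
miR-20b-5p of Mir20b: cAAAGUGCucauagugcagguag
miR-18b-5p of Mir18b: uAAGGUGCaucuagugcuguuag
miR-25-3p of Mir25: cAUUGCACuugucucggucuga
miR-92b-3p of Mir92b: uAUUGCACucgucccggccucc
miR-363-3p of Mir363: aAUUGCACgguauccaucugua
A search of all RefSeq mature strands for these seeds added Mir32 and Mir367 with the miR-92 seed and Mir6383 with the miR-17 seed. Mir32 stood at 210 ± 37 CPM, Mir367 had 2 counts in replicate 1 and 0 in replicate 2, and Mir6383 had 0 in both, which allows up to 0.663 CPM in replicate 1 and 0.832 in replicate 2 at 3 counts.

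By assigned reads, the miR-17 seed had the highest sum of the 4, with 95858 ± 13049 CPM over all loci. Each sum takes all reads of a hairpin gene, whichever mature strand they came from. How many unplaced reads carried the miR-19 or miR-92 seed is unknown, so this is a ranking of assigned reads alone. Chromosome 14 gave 71.2% ± 0.82 of the miR-17 seed sum. The chromosome 5 cluster gave 27.7% ± 0.86, through Mir93 at 17665 and 14373 CPM and Mir106b at 10772 and 10124 CPM. The X cluster gave 1.11% ± 0.045. The miR-18 seed came almost wholly from Mir18, 99.5% ± 0.013, as Mir18b on chromosome X had 45.1 and 42.7 CPM.

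The miR-92 seed summed to 8757 ± 1435 CPM, of which Mir92-1 gave 71.7% and 72.5%. Mir25 gave 11.7% in replicate 1 and 7.69% in replicate 2, and Mir92b with Mir32 and Mir367 gave 9.99% and 13.2%. The miR-19 seed summed to 157 ± 8.4 CPM, of which the chromosome 14 hairpins gave 93.6% ± 0.80 and Mir19b-2 the rest. For the miR-19 and miR-92 seeds these sums and shares hold only for assigned reads, since reads inside the common stretches shown above were not placed.

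**Figure D3:**
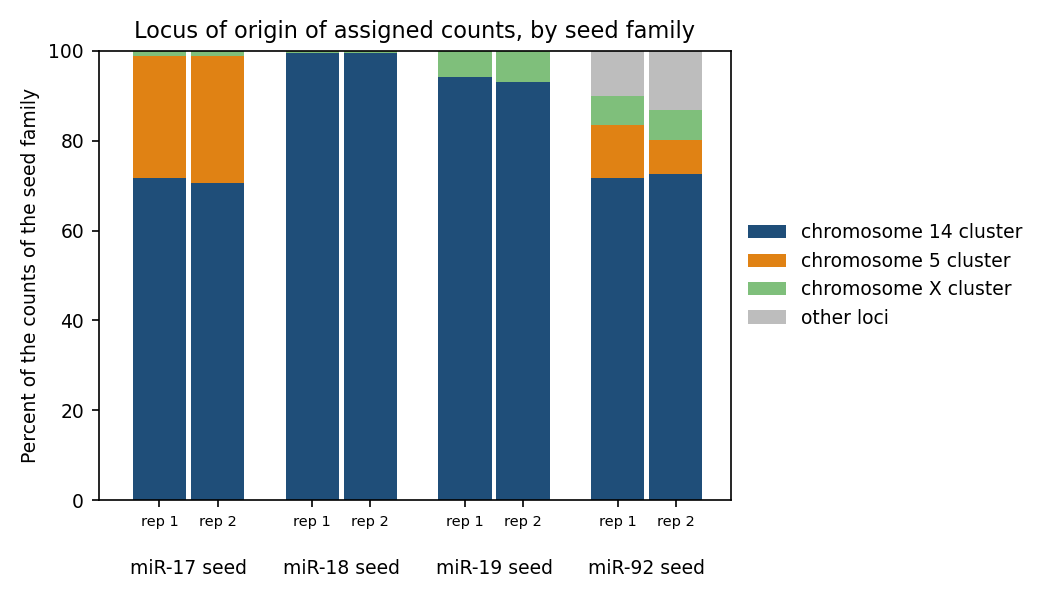
Percent of the assigned counts of each seed family by locus, 1 stacked bar per family and replicate. The chromosome 14 cluster gave at least 70.6% of every family in both replicates, and the chromosome 5 cluster was the main other source of the miR-17 seed (27.1% and 28.3%).

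Of the 6 chromosome 14 hairpins 5 were also set against a counterpart on chromosome X, while Mir19a has none among the listed X hairpins and was not compared. Mir18 exceeded Mir18b by 187-fold in replicate 1 and 180-fold in replicate 2, Mir17 exceeded Mir106a by 73.6 and 76.3 times, and Mir20a exceeded Mir20b by 43.8 and 45.9 times. The pairs whose family strand is identical had smaller ratios. Mir92-1 exceeded Mir92-2 by 30.7 and 22.5 times and Mir19b-1 exceeded Mir19b-2 by 2.70 and 2.32 times in assigned counts, and which part of the hairpin those reads cover cannot be read from the tables. The whole cluster exceeded the X cluster by 48.6 ± 3.0 times and the chromosome 5 cluster by 3.03 ± 0.026 times (SD, n = 2).

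Between the pools the hairpins did not move as 1 unit. The log2 ratio of replicate 2 over replicate 1 was -0.30 for Mir17 (SE 0.0046, counting error alone), -0.31 for Mir20a (SE 0.0078) and -0.13 for Mir18 (SE 0.011), but 0.35 for Mir92-1 (SE 0.013). Mir17, Mir20a and Mir18 were thus higher in replicate 1 and Mir92-1 was higher in replicate 2. Mir19a (0.08, SE 0.092) and Mir19b-1 (0.14, SE 0.20) differed by less than their counting error. In bulk tissue, fewer cells that make a microRNA and less of it per cell cannot be told apart.

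A two-sided exact binomial test on counts, with Benjamini-Hochberg adjustment over all 436 genes with 10 or more counts, called 4 of the 6 hairpins at 0.05. It called 3 higher in replicate 1 and 1 in replicate 2, and the largest adjusted p of the 4 was 5.97e-28 (Mir18). The background was high: 41.7% of all genes tested were called, 21.3% higher in replicate 1 and 20.4% higher in replicate 2. That share covers genes from 10 counts up, while each of the 4 called hairpins had at least 25139 counts in each library. At such counts even small differences are called, so 4 of 6 against 41.7% is not an enrichment of the cluster. The test sets the difference of these pools against the noise of counting and says nothing about a condition. An edgeR negative binomial exact test, which takes its dispersion from the same libraries (biological coefficient of variation 16.4%), called 0 of the 6 and 0 of 436 genes. The difference between the 2 libraries is already inside that dispersion. The test therefore has little power to call it, and its 0 calls do not show that the libraries are alike. In that test 25 genes and none of the 6 had an unadjusted p under 0.05, and every adjusted p of a member was 1.

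The shifts of the members were moderate beside those of other genes. Over the 189 genes at 100 CPM or more the log2 ratios had an SD of 0.32 and a median of -0.01. Of these genes 14.8% had a lower ratio than Mir17 and 13.2% a higher one than Mir92-1. The median of the 6 hairpins was -0.02, and it was -0.01 over all genes tested.

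Inside each library the ratio of Mir20a to Mir17 was nearly constant. Mir20a held 34.2% of the level of Mir17 in replicate 1 and 34.0% in replicate 2, a shift of -0.01 on the log2 scale (SE 0.0091). Mir18 went from 15.0% to 16.9% of Mir17, a shift of 0.17 (SE 0.012), and Mir92-1 from 9.88% to 15.5%, a shift of 0.65 (SE 0.014). Mir19a shifted by 0.38 (SE 0.092) and Mir19b-1 by 0.44 (SE 0.20) relative to Mir17. The shift of Mir20a was near its counting error, and that of Mir92-1 was the largest of the 5 hairpins set against Mir17.

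Relatives on other chromosomes with the miR-17 seed were set beside these values. Mir93, on chromosome 5, held 31.4% of the level of Mir17 in replicate 1 and 31.5% in replicate 2, a shift of 0.0015 on the log2 scale (SE 0.0093), and its own log2 ratio between the libraries was -0.30, as for Mir17. Mir106a (-0.35, SE 0.040) and Mir20b (-0.38, SE 0.052) on chromosome X had like values. Mir106b (-0.09, SE 0.0100), a neighbour of Mir93, was nearer to Mir18.

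Among genes with the miR-92 seed, Mir92-2 (0.80, SE 0.066) and Mir92b on chromosome 3 (1.04, SE 0.037) were higher in replicate 2, as Mir92-1 was. Mir25 (-0.27, SE 0.036) and Mir32 (-0.36, SE 0.071) were higher in replicate 1, and Mir363 (0.03, SE 0.056) lay within its counting error. The family strands of Mir92-2 and Mir92b are the ones closest to that of Mir92-1, with 0 and 2 mismatches, against 3 for Mir25, 10 for Mir32 and 11 for Mir363 over 21 bases. With 2 libraries this is a description of those pools, and no cause was tested. Across 163 genes at 100 CPM or more with a RefSeq hairpin, the hairpin's GC content and the log2 ratio had a Pearson r of 0.12 and a Spearman rho of 0.07, taken across genes that share the same libraries. These values are for the whole hairpin and not for the mature strand. Strand GC was 63.6% for Mir92b, 57.1% for Mir92-1 and Mir92-2, 50% for Mir25, 40.9% for Mir363 and 31.8% for Mir32. The part of strand GC in the ratios was not tested. Reads inside the stretch common to Mir92-1 and Mir92-2, which holds all of miR-92a-3p, fit both places and were not placed. The mismatches and GC of that strand therefore need not describe the counted reads of these 2 genes.

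**Figure D4:**
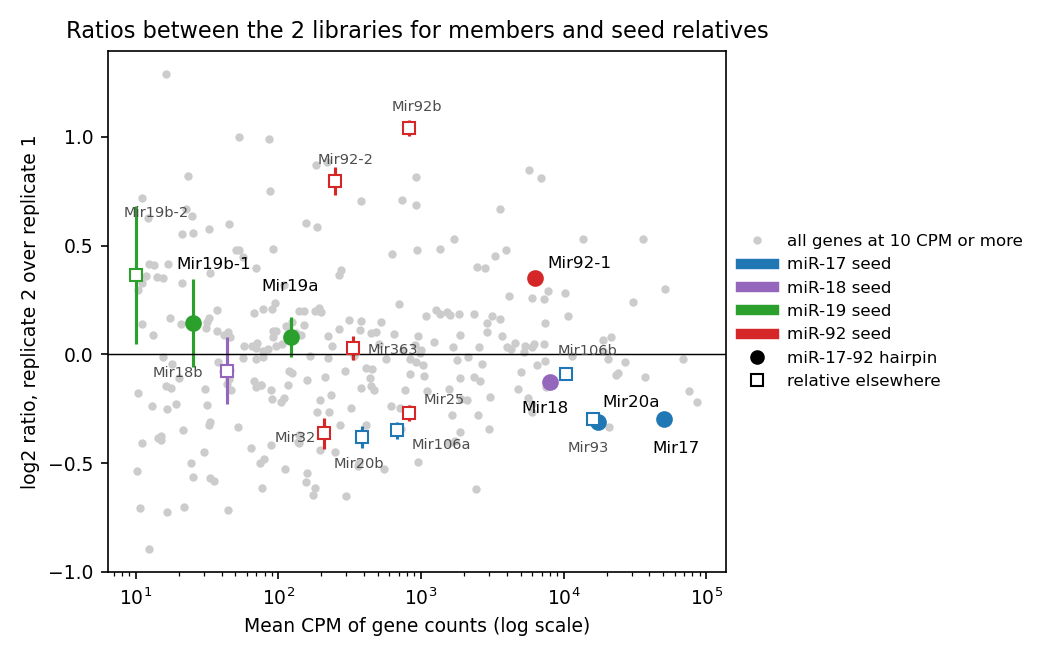
Log2 ratio of replicate 2 over replicate 1 against the mean level (CPM of gene counts, log scale), with the 6 hairpins as filled circles, relatives with the same seed as open squares, bars for 1 counting SE and all other genes at 10 CPM or more in grey. Mir17, Mir20a and Mir93 lie together near -0.30, while Mir92-1 (0.35), Mir92-2 (0.80) and Mir92b (1.04) lie above 0.

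By level in both libraries, the gene outside the cluster nearest to Mir20a was its relative Mir93, at a Euclidean distance of 0.17 in log2(CPM + 1) over the 2 libraries. Nearest to Mir18 was Mir130b (distance 0.08), nearest to Mir92-1 was Mir151 (0.11), nearest to Mir19a was Mir3102 (0.06), nearest to Mir19b-1 was Mir384 (0.28) and nearest to Mir17 was Mir214 (0.42), which stood at 45737 CPM in replicate 1 and 56376 in replicate 2. Such nearness is of read level alone.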

How the data were processed

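Small RNA libraries of 2 limb pools were analysed. The deposited tables hold whole-number counts per microRNA gene, made by the authors on mm10 with GENCODE M4, per the README deposited with each library. The aligner, counter, trimming and mismatch settings were not stated in these sources. Of 3 count columns, the first equals the sum of the other 2, and the one read as the gene's own strand was used. It was read so because the 6 hairpins had no counts in the remaining column. The 4 rows that name no gene (57.5% of the reads of replicate 1, 63.0% of replicate 2) were left out. Of 1973 gene rows 1894 matched GENCODE M21, which gave symbols and coordinates, and all 6 hairpins matched. Mature sequences came from RefSeq, GRCm38.p6. Log2 ratios had 0.5 counts added. Tests used SciPy 1.17.1, edgeR 4.0.16 and R 4.3.3, with DESeq2 1.42.0 size factors as an alternative. The binomial test was tried on simulated Poisson counts, which vary by counting alone. That trial cannot show how the test behaves on libraries that vary by more than counting. Members, gene lists and tests were chosen with earlier results of these data known. All 6 members and the listed relatives are named, with the nearest gene to each member.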

Additional observations from a re-analysis of the deposited data

How the results depend on the processing

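The cluster's share of 8.28% became 7.11% with reads outside the genes added to the total and 3.31% over all reads. It ran from 7.61% to 8.96% when either replicate was left out, and the ratio of Mir17 to Mir19b-1 from 1733 to 2355. The binomial test called 4 hairpins under TMM scaling, DESeq2 size factors and no count filter, with 174 to 186 genes in all against 182. The negative binomial test called 0 hairpins and 0 genes, with a dispersion that already holds the difference between the 2 libraries. Allowing 1 mismatch raised the strands with a match elsewhere from 2 to 4. The order of the 6 hairpins was the same in each replicate. It was also the same over all reads and with both strands, but these settings could not change it within a library. The first rescales all genes alike, and no member had counts on its opposite strand. Per hairpin nucleotide, a setting chosen after seeing the data, the order held for the mean levels but not for Mir18 and Mir92-1 in replicate 2. The mean span of the Mir322-Mir503 cluster rose from 195 to 4453 times with Mir450-1 and Mir450-2 included, also chosen then. The comparison between libraries could not be run without either replicate. At 95 to 108 counts, differences of Mir19b-1 between the libraries were not detectable within counting error.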
